A study of Homo sapiens with 5 samples.

Results

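The genes described here encode the protein subunits of the cytosolic ribosome. They were picked by symbol alone, from genes named RPL or RPS followed by a number and, in some cases, by A or X, together with RPLP0, RPLP1, RPLP2 and RPSA, and they are not the whole family. This gave 68 genes among the 37181 entries of the expression table, 40 of them for the large subunit and 28 for the small subunit. A total of 82 entries carried one of these symbols. Where a symbol had several, which was so for 10 genes, the entry with the highest mean level was used, and the highest mean among the 14 entries passed over was 2.73 FPKM.

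RNA was sequenced from HCC827, a human lung adenocarcinoma cell line whose EGFR gene carries a deletion in exon 19, and from HCC827/GR, a gefitinib-resistant line derived from it. Gefitinib is an inhibitor of the EGFR kinase, and HCC827/GR cells were obtained by keeping parental cells under stepwise increasing doses for more than 6 months. The libraries used were replicates 1, 2 and 3 of HCC827/GR and replicates 2 and 3 of the parental, gefitinib-sensitive line, labelled HCC827/GS. Both groups stem from cells with the EGFR deletion, and HCC827/GR is a single derived line with no parallel line to set beside it. No label says that replicates were separate cultures, so p-values measure the spread between these libraries, which may be technical.

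A ribosome is built from ribosomal RNA and one copy of most of its proteins, so cells make these proteins in matched amounts, and their mRNAs are among the most abundant of any growing cell. Most of these mRNAs begin at a cytosine followed by an uninterrupted run of pyrimidines, the terminal oligopyrimidine (TOP) tract, through which growth signals acting on the mTOR kinase and LARP1 control their translation. The family has also left many processed pseudogenes in the human genome, intronless copies so close in sequence to their parents that short reads can be assigned to either.

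The starts of 9 genes are printed because the results turn on them and because they show how the tract varies. Each is the RefSeq sequence of GRCh38.p14 on the strand of the gene, from 10 bases before the annotated start to 20 bases from it on, so that base 11 is the start. Capitals mark the longest run of C and T that touches the start or the 5 bases on either side.
RPS19: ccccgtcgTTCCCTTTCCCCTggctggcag
RPL17: TTCCCTaagcagcctgaggtgagtgtttct
RPS4X: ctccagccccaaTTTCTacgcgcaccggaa
RPL7A: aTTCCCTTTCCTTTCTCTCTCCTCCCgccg
RPL29: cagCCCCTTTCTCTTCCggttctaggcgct
RPL39: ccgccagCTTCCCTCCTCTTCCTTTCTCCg
RPL6: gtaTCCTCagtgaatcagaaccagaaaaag
RPS15: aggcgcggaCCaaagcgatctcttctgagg
RPS29: agcgcgcagCTggcagcggtggttgtttct
These windows lie at chr19:41860245-41860274 (plus strand) for RPS19, chr18:49492446-49492475 (minus) for RPL17, chrX:72277229-72277258 (minus) for RPS4X, chr9:133348208-133348237 (plus) for RPL7A and chr3:51995876-51995905 (minus) for RPL29. The window of RPL39 is chrX:119791611-119791640 (minus), that of RPL6 chr12:112411423-112411452 (minus), that of RPS15 chr19:1438386-1438415 (plus) and that of RPS29 chr14:49598691-49598720 (minus). The run is 25 bases long in RPL7A, 22 in RPL39, 14 in RPL29 and 13 in RPS19. In RPL6 and RPS4X it is 5 bases long and in RPS15 and RPS29 only 2, and the annotated start of RPL17 lies behind a run of 16, of which 6 fall in the window.

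RefSeq promoters were found for 56 of the 68 genes, and RPL7 was among the unmatched ones. A run of at least 8 C or T touching the start or the 5 bases on either side was present in 42 of the 56 (75.0%), against 11.3% of all 27305 promoters in the table. The start base was C in 42 genes (75.0%), against 15.0% of all promoters. The letters CTTTCC, which can lie within such a run, occurred on the gene strand within 25 bases of the start in 16 genes (28.6%), against 2.45% of all. CCGGAA, the core of the sites bound by ETS-family factors, was found on either strand within 300 bases in 30 genes (53.6%), against 17.6%. AAGATGG, part of the YY1 motif, was found in the same way in 8 genes (14.3%), against 6.06%. TATAAA, searched on the gene strand from 40 to 16 bases before the start, occurred in 2 (3.57%), against 2.54%. These are matches of letters in an annotation, and they describe neither binding nor translation in these cells.

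Expression was given as FPKM, fragment counts scaled to transcript length and to the size of the library, a scale on which levels of different genes can be set side by side per length. All 68 genes passed the filter of a mean of at least 0.5 FPKM, as did 16189 entries in all. Mean levels over the 5 libraries ran from 2.83 FPKM for RPS29 to 398 FPKM for RPL7A, a 140.0-fold range, with a median of 63.6 and quartiles of 33.0 and 120.0 FPKM. The median of all entries tested was 2.71 FPKM, and 98.4% of them were below the median ribosomal protein gene. Large and small subunit genes had similar medians of 63.0 and 68.1 FPKM. Across the 68 genes, the log2 level and the median length of the annotated transcripts had a Pearson correlation of 0.314 and a Spearman correlation of 0.379, given as a description of one set of libraries.

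**Figure D1:**
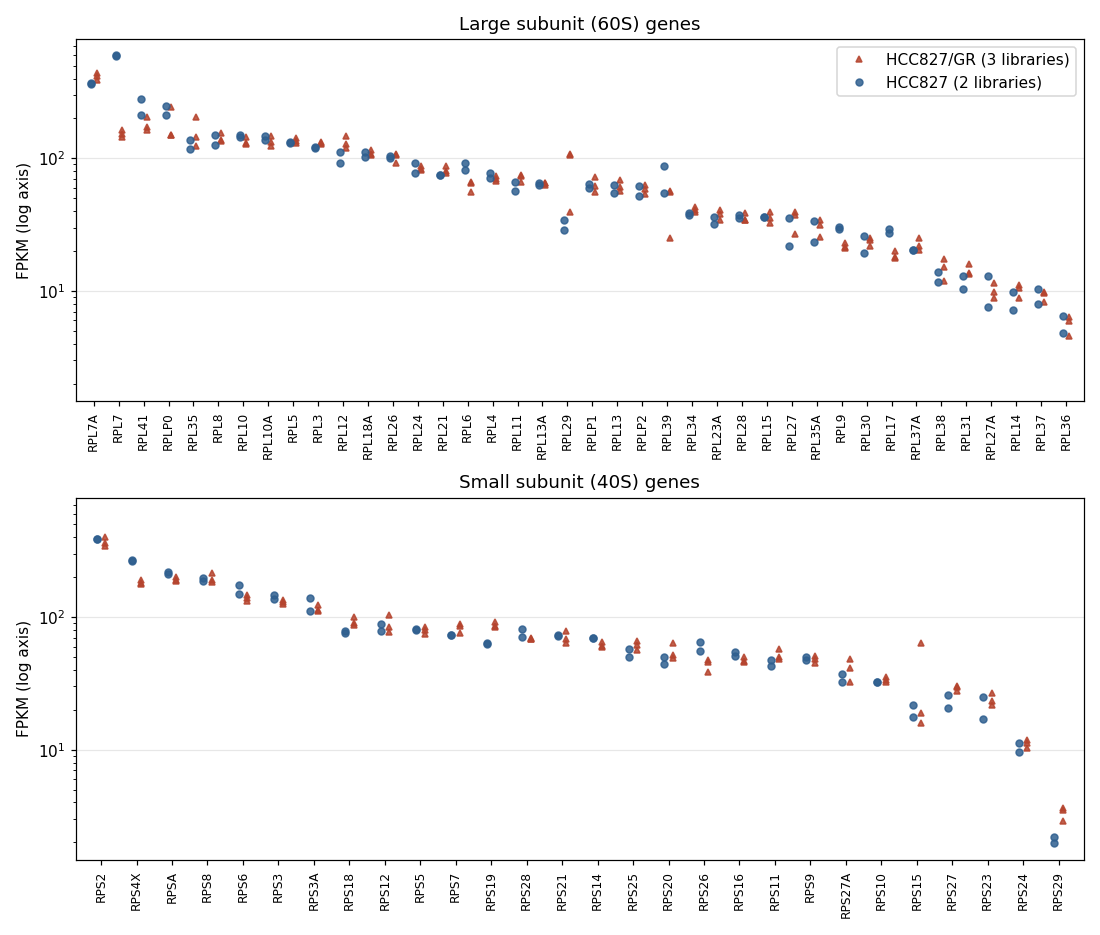
Levels of the 68 ribosomal protein genes in FPKM on a log axis, with genes ordered by mean level, large subunit above and small subunit below. Triangles are the 3 HCC827/GR libraries and circles the 2 parental HCC827 libraries. Most genes show overlapping or nearly overlapping symbols, RPL7 shows a wide gap with both circles at the top, and RPL29 and RPS15 each have 1 triangle far from the other two.

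The most abundant transcript was that of RPL7A, a large-subunit protein near the surface of the particle. It stood at 416, 393 and 441 FPKM in HCC827/GR and at 365 and 373 FPKM in parental cells. The groups did not overlap, but the log2 fold change of 0.17 (SE 0.10) had an adjusted p of 0.355 by limma. RPS2, which sits near the path by which mRNA enters the small subunit, was next at 342, 363 and 404 FPKM in HCC827/GR and 385 and 391 FPKM in parental cells, with overlapping groups. At the other end, RPS29, a small zinc-binding protein of the small-subunit head, stood at 3.48, 2.89 and 3.63 FPKM in HCC827/GR and 1.96 and 2.21 FPKM in parental cells. Its 3 resistant libraries were all above both parental ones, with a log2 fold change of 0.49 (SE 0.12) and an adjusted p of 0.0721. The other 4 of the lowest 5 were large-subunit genes. RPL36 ran from 4.58 to 6.32 FPKM in HCC827/GR and from 4.82 to 6.53 in parental cells, and RPL37 from 8.25 to 9.9 and from 7.98 to 10.4. RPL14 ran from 8.91 to 11.1 FPKM and from 7.22 to 9.9, and RPL27A from 8.88 to 11.5 and from 7.55 to 13.1. In all 4 the groups overlapped.

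Most ribosomal protein genes were measured at nearly the same level in both lines, and RPL7 was the plain exception, with a mean in HCC827/GR of 0.258 times that in parental cells. By limma with Benjamini-Hochberg adjustment over all 16189 entries, 4 of the 68 genes had an adjusted p under 0.05, against a background of 11.0% of all entries. RPS19 alone was higher in HCC827/GR (background 5.26%), and RPL7, RPL17 and RPS4X were lower (background 5.71%). When a difference of 2-fold or more on the log2 scale was asked for together with an unadjusted p under 0.05, the cut-offs used by the study, none was higher (background 2.96%) and RPL7 alone was lower (background 3.97%). An unadjusted p under 0.05 was reached by 8 genes (11.8%, background 27.2%). The 3 resistant and 2 parental libraries did not overlap in 27 genes (39.7%, background 46.3%), of which 14 were higher in HCC827/GR (background 22.8%) and 13 lower (background 23.4%).

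The median log2 fold change of the 68 genes, on the scale of log2(FPKM + 1), was 0.034, with quartiles of -0.09 and 0.18, and it was above 0 in 39 genes and below 0 in 29. The sign of this median depended on single libraries, as it ranged from -0.031 without HCC827/GS replicate 2 to 0.11 without HCC827/GS replicate 3. Over all entries tested the median was 0.0014 and the quartiles were -0.27 and 0.27. A change within 0.25 of 0 was measured for 49 ribosomal protein genes (72.1%), for 47.2% of all entries and for 48.3% of the 7890 entries whose level lay in the range of the ribosomal protein genes. Large-subunit genes had a median of 0.034 and small-subunit genes of 0.0387. The spread between libraries of one line was also small, with a median within-group SD of 0.12 on the log2 scale against 0.18 for all entries and 0.16 for entries of that level range.

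**Figure D2:**
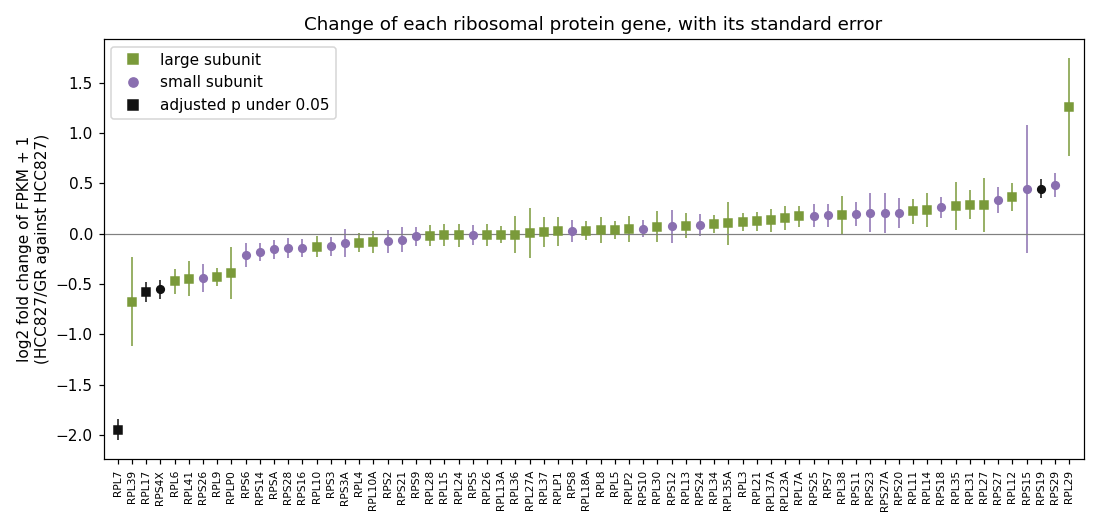
Log2 fold change of FPKM + 1 in HCC827/GR against parental HCC827 for each of the 68 genes, in order of size, with its standard error from limma. Squares are large-subunit and circles small-subunit genes, and black marks the 4 genes with an adjusted p under 0.05. The values run from -1.95 for RPL7 to 1.26 for RPL29, and 63 of the 68 lie within 0.5 of 0.

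RPL7 encodes a large-subunit protein that binds ribosomal RNA, and its gene lies on the minus strand at chr8:73290267-73295789 in GENCODE 29 (GRCh38). Its transcript stood at 152, 145 and 165 FPKM in HCC827/GR and at 595 and 599 FPKM in parental cells. The lines were far apart, while the libraries of each differed little, with means of 154 ± 9.86 (SD, n = 3) and 597 ± 2.82 (SD, n = 2). The log2 fold change was -1.95 (SE 0.10), with an adjusted p of 0.00251, and the call held when any 1 of the 5 libraries was left out, with values from -2.0 to -1.91. In a refit of Ballgown's model, the one the study's own software fits, to the 5 libraries used here, the adjusted p was 0.136. The study's own Ballgown analysis listed RPL7 among its top differing genes, as lower in HCC827/GR. In limma with the replicate number as a block, which leaves HCC827/GR replicate 1 without a partner and so drops it from the estimate, the adjusted p was 0.124. RPL7 supplied 2.71%, 2.71% and 2.73% of the summed FPKM of the 68 genes in HCC827/GR and 9.93% and 9.35% in parental cells. In these bulk libraries, fewer cells with the transcript and less of it per cell cannot be told apart.

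RPL17 lines the tunnel through which the new protein leaves the ribosome. It stood at 18.2, 17.8 and 20.1 FPKM in HCC827/GR and at 29.6 and 27.4 FPKM in parental cells, so that every resistant library was below both parental ones. The log2 fold change was -0.58 (SE 0.10, adjusted p = 0.0328). The RPL17 entry is one of 9 in which the assembly joined a ribosomal protein gene to transcripts of other genes, here C18orf32 and the RPL17-C18orf32 readthrough, and their share of the value was not tested.

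RPS4X is the X-linked gene of a small-subunit protein that contacts ribosomal RNA, and it is known to escape X inactivation. It stood at 179, 179 and 189 FPKM in HCC827/GR and at 270.5 and 266 FPKM in parental cells, without overlap. The log2 fold change was -0.55 (SE 0.09, adjusted p = 0.0294). RPS19, a protein of the small-subunit head and the gene most often mutated in Diamond-Blackfan anaemia, went the other way. It stood at 85.5, 83.9 and 91.2 FPKM in HCC827/GR and at 64.3 and 62.5 FPKM in parental cells. Again no library crossed over, with a log2 fold change of 0.45 (SE 0.09, adjusted p = 0.0463). For RPL17, RPS4X and RPS19 the adjusted p passed 0.05 whichever library was left out, with ranges of 0.0573 to 0.118, 0.0636 to 0.117 and 0.103 to 0.136, while each direction held. The call of RPS4X was also lost without the filter on low values (adjusted p = 0.153) and after quantile normalization (0.0613). That of RPS19 was lost in the same settings (0.0747 and 0.0649), after median-ratio scaling (0.0575) and in limma without the trend (0.0573). The calls of RPL17, RPS4X and RPS19 were all lost in Ballgown's model and with the replicate block.

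**Figure D3:**
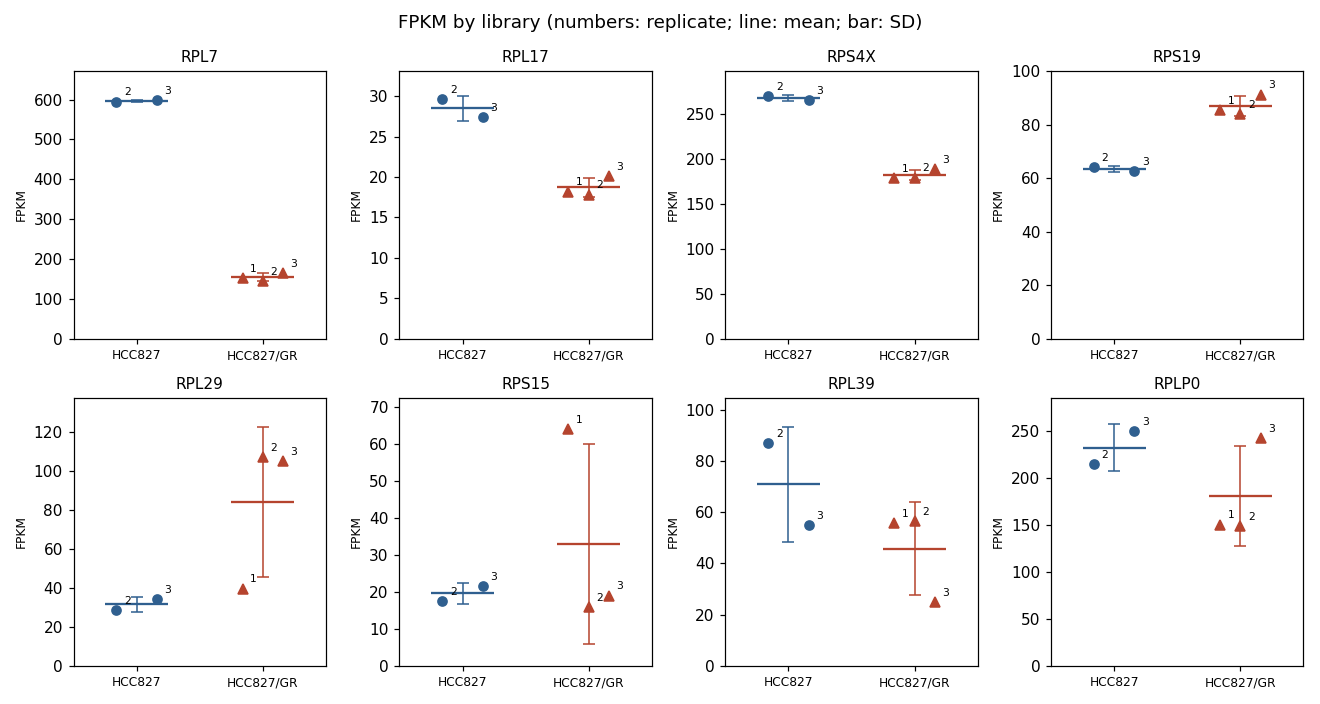
FPKM of 8 ribosomal protein genes in each library, on linear axes that start at 0. Numbers give the replicate, lines the group mean and bars the SD. The upper 4 genes are those with an adjusted p under 0.05, and in each the libraries of a line sit close together and apart from the other line. In the lower 4 genes, 1 HCC827/GR library stands apart from the other two, which is replicate 1 for RPL29 and RPS15 and replicate 3 for RPL39 and RPLP0.

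Some of the widest differences between the means came from genes in which libraries of the same line disagreed. RPL29, a small basic protein of the large subunit, had the highest log2 fold change, 1.26 (SE 0.49, adjusted p = 0.187). It stood at 39.6, 107 and 105 FPKM in HCC827/GR and at 28.8 and 34.3 FPKM in parental cells. Replicate 1 of HCC827/GR was near the parental level and the other two far above it, and without replicate 1 the log2 fold change was 1.73, with an adjusted p of 0.0342. RPS15, which lies in the small-subunit head near the decoding site, stood at 64.1, 15.8 and 19.0 FPKM in HCC827/GR and at 17.6 and 21.6 FPKM in parental cells. Its log2 fold change of 0.45 (adjusted p = 0.71) rested on replicate 1 and was -0.16 without it (adjusted p = 0.623). RPL39, a very short protein of the exit tunnel, stood at 55.9, 56.6 and 24.9 FPKM in HCC827/GR and at 86.9 and 55.1 FPKM in parental cells. The groups overlapped, and the log2 fold change of -0.68 (SE 0.44) had an adjusted p of 0.394. These 3 genes had the highest within-group SDs of the family, 0.67 for RPL29, 0.88 for RPS15 and 0.60 for RPL39 on the log2 scale.

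RPL6 and RPL41, both of the large subunit, were also among the largest falls by value. RPL6 stood at 64.9, 56.2 and 66.9 FPKM in HCC827/GR and at 81.7 and 92.9 FPKM in parental cells, and RPL41, the shortest of the ribosomal proteins, at 165, 172 and 204 FPKM and at 214 and 281 FPKM. Neither overlapped between lines, and neither passed the test, with log2 fold changes of -0.47 (SE 0.13, adjusted p = 0.0863) and -0.45 (SE 0.17, adjusted p = 0.187). RPL6 did pass after quantile normalization (adjusted p = 0.0364) and among protein-coding entries alone (0.0472). By position, all 4 genes on chromosome 12, which are RPL6, RPL41, RPLP0 and RPS26, had values between -0.47 and -0.39, and none passed the test. This grouping was chosen after the values were seen, and it was not the only one of a single sign. The 3 genes on the X chromosome had values between -0.68 and -0.13. The 4 on chromosome 1 lay between 0.03 and 0.33, and the 4 on chromosome 2 between 0.13 and 0.29. On chromosome 8, where RPL7 stood at -1.95, the other 3 genes, RPL8, RPL30 and RPS20, had values between 0.04 and 0.21.

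The stalk of the large subunit, which recruits the elongation factors, is built from RPLP0 and dimers of RPLP1 and RPLP2, with RPL12 at its base. None of the 4 genes had an adjusted p under 0.05 (background 11.0%), and their median log2 fold change was 0.036. RPLP0, often used as a reference gene, stood at 150.1, 149 and 242 FPKM in HCC827/GR and at 214 and 249.7 FPKM in parental cells. Replicate 3 of HCC827/GR lay within the parental range and the other two below it, with a log2 fold change of -0.39 (SE 0.26, adjusted p = 0.397). RPLP1 ran from 55.6 to 72.8 FPKM in HCC827/GR and from 59.5 to 64.6 in parental cells, and RPLP2 from 54.3 to 62.8 and from 51.6 to 61.9. RPL12 stood at 129, 119.8 and 147 FPKM against 93.1 and 112 FPKM, without overlap, at a log2 fold change of 0.37 (SE 0.14, adjusted p = 0.19). RPL5 and RPL11, which bind the 5S ribosomal RNA and, when free, the p53 regulator MDM2, did not pass the test either. RPL5 ran from 130.1 to 142 FPKM in HCC827/GR and stood at 132 and 133 in parental cells (log2 fold change 0.04, SE 0.09). RPL11 stood at 75.1, 65.8 and 74.0 FPKM against 56.3 and 66.4 FPKM (log2 fold change 0.22, SE 0.12, adjusted p = 0.325).

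Structure and disease define further groups within the family. Of 7 proteins at the exit tunnel, RPL17 alone had an adjusted p under 0.05 (14.3%, background 11.0%), and the median log2 fold change was -0.011. Of 13 proteins of the small-subunit head, RPS19 alone passed (7.69%, background 11.0%), with a median of 0.18. Of 11 genes mutated in Diamond-Blackfan anaemia, again RPS19 alone passed (9.09%, background 11.0%), with a median of 0.08. These shares lie near that of all entries.

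The summed level of the family did not separate the lines. The 68 genes together stood at 5615, 5362 and 6034 FPKM in HCC827/GR and at 5992 and 6405 FPKM in parental cells (two-sided exact permutation p = 0.3, the smallest possible being 0.1). Without RPL7 the sums were 5462, 5216 and 5869 FPKM against 5397 and 5806 FPKM (exact permutation p = 0.8). As a share of all FPKM in a library, the family took 3.35%, 3.72% and 3.89% in HCC827/GR and 4.32% and 3.96% in parental cells (exact permutation p = 0.2). Every resistant library was below both parental ones on this measure. Without RPL7 the shares were 3.26%, 3.62% and 3.78% against 3.89% and 3.59% (exact permutation p = 0.5), and the groups overlapped. The small-subunit sum was 2444, 2312 and 2567 FPKM against 2468 and 2612 FPKM (exact permutation p = 0.4). The large-subunit sum without RPL7 was 3018, 2904 and 3303 FPKM against 2929 and 3194 FPKM (exact permutation p = 1.0). Neither sum without RPL7 had a steady direction. For all genes the difference of HCC827/GR from parental cells, -85.5 FPKM, turned to 64.3 without HCC827/GR replicate 2 and to 119 without HCC827/GS replicate 3, and for the large subunit the difference of 13.4 FPKM turned to -100.5 without HCC827/GR replicate 3 and to -119 without HCC827/GS replicate 2.

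Within a line, the same library was often the lowest or the highest across the family. Replicate 2 was the lowest HCC827/GR library in 53 of the 68 genes and replicate 3 the highest in 52, and replicate 3 was the higher parental library in 52. These orders were not counted over all entries, so they cannot be called particular to the family. The total FPKM of a library was also lowest in replicate 2 of each line. It was 167722, 144174 and 155071 in HCC827/GR and 138854 and 161943 in parental cells. The share of FPKM held by small non-coding RNAs also varied, at 15.95%, 6.09% and 8.10% in HCC827/GR and 4.30% and 12.9% in parental cells, and its part in these orders was not tested. Over all entries, libraries of one line had Pearson correlations of 0.913 to 0.927 on the log2 scale, and libraries of different lines 0.851 to 0.873. Of 6 epithelial and lung markers tested, all had negative log2 fold changes and 5 had an adjusted p under 0.05, from EPCAM at -3.04 (adjusted p = 0.00349) to KRT18 at -0.93 (adjusted p = 0.0414). Of 12 markers of blood, vessel, stromal and liver cells, 10 were in the table and 8 of them did not pass the filter, with values of at most 0.257 FPKM. The other two were CD68, whose entry joins EIF4A1 and other genes, and PECAM1, at 4.34 and 3.32 FPKM in parental cells and listed at 0 in all 3 HCC827/GR libraries.

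Reads shared with pseudogenes can bear on these values, to a degree that differs between genes. The table holds 390 entries named as pseudogenes of 57 of the 68 genes, up to 57 for 1 gene, RPL23A. Of these entries 51 passed the filter and 19 were listed at 0 in every library. Summed over all 390, pseudogene entries stood at 237, 233 and 248 FPKM in HCC827/GR and 239 and 279 FPKM in parental cells. As a measure of how far reads could be shared, all 50-base words of a gene's GENCODE 29 transcripts were searched in transcripts of genes elsewhere in the genome. Between 0.049% and 25.9% of the words of a ribosomal protein gene were found there, with a median of 7.71%. The share was 23.1% for RPL7, 15.1% for RPL17, 5.14% for RPS4X and 0.325% for RPS19. Words of every annotated transcript of a gene were counted, so the share of a single mRNA can be higher. For RPL7, 696 of 3010 words were found elsewhere, and its whole 747-base pseudogene RPL7P9 holds 698 words. RPS19 also had no pseudogene entry in the table.

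RPL7 had 32 pseudogene entries, which together stood at 13.5, 10.4 and 11.99 FPKM in HCC827/GR and 23.3 and 25.8 FPKM in parental cells. The most abundant was RPL7P9, a single stretch of 747 bases at chr1:96678874-96679620, of whose 50-base words 86.8% also occur in a gene of the family. It stood at 5.85, 4.29 and 5.86 FPKM in HCC827/GR and at 15.1 and 19.3 FPKM in parental cells, lower in each resistant library as RPL7 was. Its log2 fold change was -1.52 (SE 0.18, adjusted p = 0.0137), and whether its value comes from its own transcript or from reads of RPL7 was not tested. RPL7P1, of whose words 78.5% occur in a gene of the family, ran the opposite way. It stood at 1.504, 0.944 and 1.41 FPKM in HCC827/GR and was listed at 0 in both parental libraries. It too passed the test, at a log2 fold change of 1.18 (SE 0.17, adjusted p = 0.0206). With the pseudogene entries of each gene added to it, the same 4 genes passed the test, with log2 fold changes of -1.90 for RPL7 (adjusted p = 0.00263), -0.56 for RPL17 (0.0302), -0.55 for RPS4X (0.0288) and 0.45 for RPS19 (0.0463).

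In 6 genes the pseudogene entries summed to at least 10% of the gene's own mean level. They were RPL9 (431%), RPS29 (337%), RPL36 (102%), RPL23A (59.2%), RPS26 (13.3%) and RPL31 (12.3%). The most abundant of these entries for RPS29, RPL36 and RPL23A, which are RPS29P14, RPL36P4 and RPL23AP81, had 0.0% of their 50-base words in a ribosomal protein gene. Only exact matches were counted, so the search cannot show whether reads with mismatches were shared. RPL9, a large-subunit protein whose value came closest to the threshold without passing it, stood at 21.0, 21.5 and 23.0 FPKM in HCC827/GR and at 30.2 and 29.2 FPKM in parental cells (log2 fold change -0.43, SE 0.09, adjusted p = 0.0503). It did pass in 4 of the 17 alternatives, with a pseudocount of 0.1, with a mean of at least 1 FPKM, after quantile normalization and among protein-coding entries (adjusted p from 0.0399 to 0.0491). With its pseudogene entries added the log2 fold change was -0.16 (adjusted p = 0.324). RPL9P9 is a pseudogene at chr15:82372196-82372912, and 85.2% of its words occur in a gene of the family. It was listed at 98.8, 106 and 106 FPKM in HCC827/GR and at 108 and 114 FPKM in parental cells. The intronless copy was thus listed several times higher than the gene with introns and differed little between the lines (log2 fold change -0.10, SE 0.09, adjusted p = 0.563). Of the other abundant pseudogene entries, RPL23AP81, whose entry joins PLCG1, stood at 10.6, 12.3 and 9.54 FPKM in HCC827/GR against 5.65 and 6.14 FPKM (log2 fold change 0.77, SE 0.13, adjusted p = 0.0319). RPS29P14, whose entry joins NT5C3A, and RPS3AP6 had log2 fold changes of 0.23 and 0.32 and adjusted p-values of 0.177 and 0.273.

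**Figure D4:**
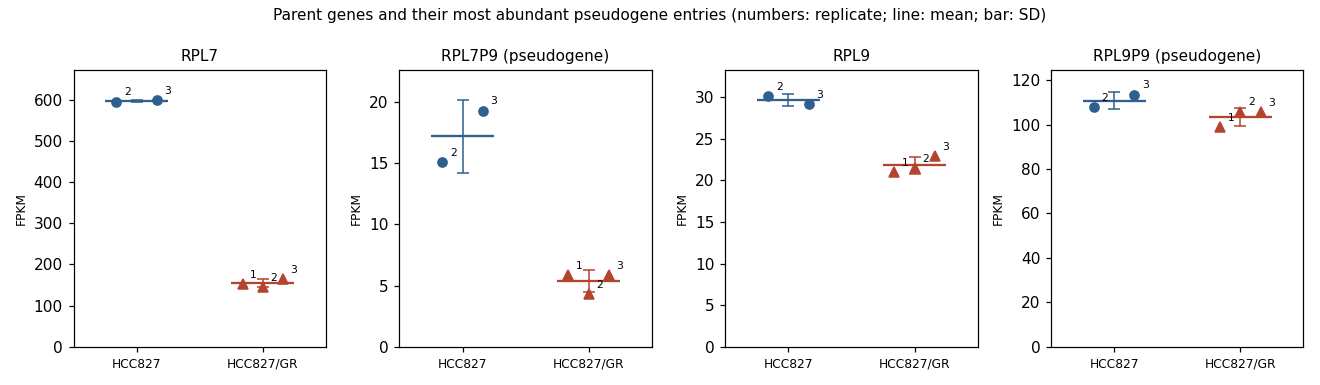
FPKM of RPL7 and RPL9 and of the most abundant pseudogene entry of each, by library, on linear axes that start at 0. Numbers give the replicate, lines the group mean and bars the SD. RPL7P9 is lower in HCC827/GR, as RPL7 is, and RPL9P9 lies near 100 FPKM in both lines while RPL9 lies between 21.0 and 30.2 FPKM.

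Copies of ribosomal protein genes that encode a protein of their own numbered 6 among the entries tested. RPS27L, a copy of RPS27 whose transcription p53 can raise, was the one that passed the test (16.7%, background 11.0%). It stood at 2.79, 2.64 and 3.10 FPKM in HCC827/GR and at 0.681 and 1.11 FPKM in parental cells (log2 fold change 1.03, SE 0.14, adjusted p = 0.0195). RPS27 itself stood at 29.7, 27.8 and 30.5 FPKM against 20.5 and 25.9 FPKM, without overlap (log2 fold change 0.33, SE 0.13, adjusted p = 0.189). RPL39L, best known from the testis, stood at 7.65, 5.13 and 2.79 FPKM in HCC827/GR and 2.41 and 3.18 FPKM in parental cells, with overlap (log2 fold change 0.63, adjusted p = 0.35). RPL36AL stood at 30.9, 25.3 and 28.0 FPKM in HCC827/GR and at 0.011 and 26.2 FPKM in parental cells, so that the near-zero value of 1 parental library set its log2 fold change of 2.47 (adjusted p = 0.336). RPL22L1, RPL26L1 and RPL7L1 had log2 fold changes between -0.08 and 0.14 and did not pass. The median of the 6 was 0.39.

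Other genes of the translation machinery gave a similar picture of a few calls around a median near 0. Of 65 mitochondrial ribosomal protein genes, which build the separate ribosome of that organelle, 2 were higher and 1 lower in HCC827/GR by adjusted p (4.62%, background 11.0%), with a median log2 fold change of 0.11. MRPL45 stood at 215, 203 and 224 FPKM in HCC827/GR and at 41.9 and 48.2 FPKM in parental cells, without overlap (log2 fold change 2.23, SE 0.11, adjusted p = 0.00239). MRPL2, whose entry joins CUL7, was higher (0.63, adjusted p = 0.0194) and MRPL42 lower (-0.59, adjusted p = 0.0248). Of 19 translation factors, many of them encoded by TOP mRNAs, EIF4B alone passed (5.26%, background 11.0%). This cofactor of the helicase of translation initiation stood at 61.6, 54.3 and 58.2 FPKM in HCC827/GR and at 92.9 and 81.1 FPKM in parental cells (log2 fold change -0.57, SE 0.11, adjusted p = 0.0434).

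Of 28 ribosome biogenesis genes, POLR1A, the catalytic subunit of RNA polymerase I, alone passed (3.57%, background 11.0%). It stood at 16.5, 17.7 and 14.8 FPKM in HCC827/GR and at 10.7 and 10.1 FPKM in parental cells (log2 fold change 0.60, SE 0.11, adjusted p = 0.0369). Of 6 dedicated chaperones of ribosomal proteins, TSR2, the escort of RPS26, alone passed (16.7%, background 11.0%). It stood at 4.90, 4.42 and 5.15 FPKM against 7.34 and 8.44 FPKM (log2 fold change -0.61, SE 0.11, adjusted p = 0.0368). RPS26 stood at 45.9, 38.6 and 47.2 FPKM in HCC827/GR and 55.2 and 64.8 FPKM in parental cells, without overlap, but did not pass (log2 fold change -0.44, SE 0.14, adjusted p = 0.125). Of 10 host genes of small nucleolar RNAs, whose transcripts often carry a TOP tract, SNHG6 alone passed, at 8.40, 8.55 and 7.63 FPKM against 15.0 and 15.9 FPKM (log2 fold change -0.84, SE 0.10, adjusted p = 0.0124). Of 17 regulators of TOP mRNAs, among them LARP1, the mTOR complex and MYC, none had an adjusted p under 0.05 by limma (background 11.0%). An unadjusted p under 0.05 was reached by 1 of them (background 27.2%). None passed in Ballgown's model, which called so few of all entries (background 0.0927%) that this adds little. Of the 8 calls in these lists, that of MRPL45 held whichever library was left out. That of SNHG6 held in 2 of the 5 cases and that of RPS27L in 1, without HCC827/GS replicate 3, and the calls of MRPL2, MRPL42, EIF4B, POLR1A and TSR2 were lost in every case, with each direction kept.

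**Figure D5:**
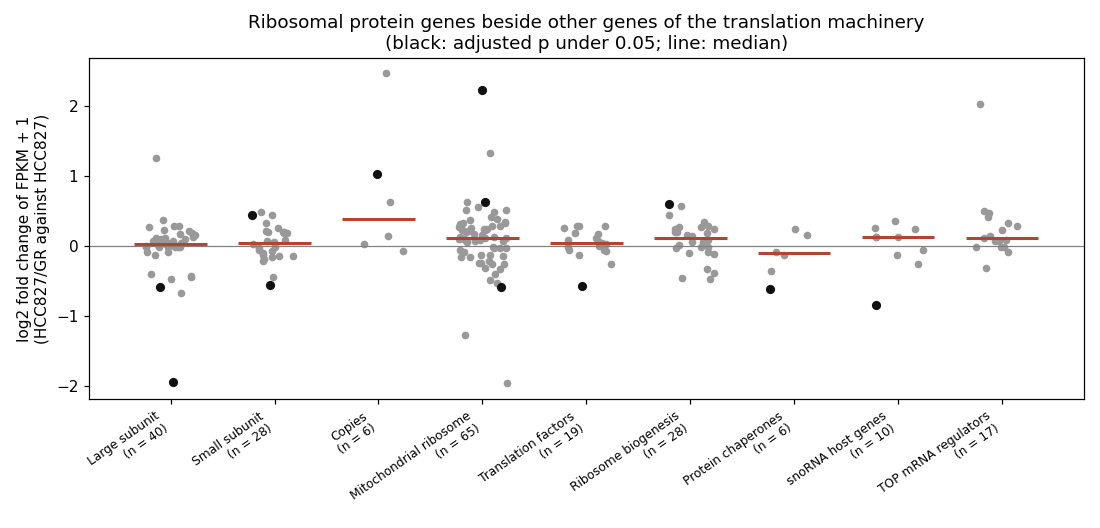
Log2 fold change of FPKM + 1 in HCC827/GR against parental HCC827 for the large- and small-subunit genes and for 7 other lists of translation genes. Each point is a gene, horizontal lines are medians and black points have an adjusted p under 0.05. The median of the copies is 0.39 and the other medians lie between -0.11 and 0.13, and the highest black point is MRPL45 at 2.23 and the lowest RPL7 at -1.95.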

How the data were processed

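According to the study's methods, the authors trimmed reads with Cutadapt, mapped them with Bowtie2 and TopHat2, assembled them with StringTie and estimated expression with Ballgown. The submitters' processing notes name hg18 as the build, whereas the transcript identifiers of the table were found in GENCODE release 29 (GRCh38), which gave gene positions. The sample descriptions speak of a small-RNA library and the study's methods of an mRNA library, and protein-coding entries held 67.3% to 79.3% of each library's FPKM. The deposited table holds 1 FPKM value per entry and library. An FPKM column that matched no deposited sample (1 in all) was not used. FPKM carries no counts, so depth and counting error are unknown, and the number of libraries limits precision.

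Values were analysed as log2(FPKM + 1), leaving out entries whose mean was under 0.5 FPKM, with limma 3.58.1 in R 4.3.3 (trend, two-sided, Benjamini-Hochberg over all entries). A fold change on this scale understates that of low genes. Sums were compared by exact permutation over libraries. Python 3.11.15 with pandas 2.3.3, numpy 2.4.6 and matplotlib 3.10.9 was used for the rest. Of these steps, the main limma fit was tested on simulated data. The genes and lists were chosen with earlier results of these data known. Named genes were those with an adjusted p under 0.05, the 5 highest and 5 lowest, the 3 largest rises and falls, the stalk and 5S genes, genes called in other lists, tested copies and the 5 most abundant pseudogene entries. RPL8, RPL9, RPL30, RPS20, RPS26, RPS27 and the cell markers were named after their values were seen, and some genes of the family are not reported here. Alternatives were another pseudocount (0.1), other filters, 2 other scalings, protein-coding entries only, limma without the trend, Ballgown's model, a replicate block, summed entries and each library left out.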

Additional observations from a re-analysis of the deposited data

How the results depend on the processing

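Among 476 alternative values for 28 named genes over 17 alternatives, 437 kept their side of the threshold, 35 lost a call and 4 gained one. No called value changed sign, and 33 values that were not called did. The median of the family moved by less than the spread between libraries but changed sign (-0.031 to 0.11 with a library left out, -0.0038 in Ballgown's model). The sum and share of all 68 genes kept their direction, which the sums without RPL7 did not. The call of RPS19, the 1 higher gene, became 0 without a filter, after median-ratio scaling, after quantile normalization, without the trend, in Ballgown's model and with the replicate block, and ranged from 0 to 1 when a library was left out, where the 1 was RPL29. The 3 lower genes became 5 among protein-coding entries (RPL6 and RPL9 added), 0 in Ballgown's model and 0 with the block, lost RPS4X without a filter and after quantile normalization (where RPL6 and RPL9 were called), and ranged from 1 to 1, always RPL7, when a library was left out. By the fold thresholds, 1 higher gene in place of 0 was called among protein-coding entries, with the block and with entries of one symbol summed, and 0 to 1 when a library was left out. In the other lists, the 4 higher calls became 0 in Ballgown's model and with the block and ranged from 1 to 3 when a library was left out. The 4 lower calls there became 2 without a filter and 0 in both of those models, and ranged from 0 to 1. Ballgown's model called 15 of all 16189 entries and the block none, so that both leave few calls anywhere. No label says whether libraries with the same replicate number belong together. Deviations of same-numbered libraries had correlations of 0.0328 and 0.0147 over 2 pairs. With 2 parental libraries their deviations mirror each other, so these values cannot decide it. Among the 68 genes, replicate 2 was the lowest library in 53 for HCC827/GR and in 52 for HCC827/GS. Replicate 3 was the highest in 52 for each line. These orders were not counted over all entries. Chosen after seeing the data were the sums without RPL7 and the addition of single-gene pseudogene entries alone. The cause of these changes was not tested. Depth is unknown and the parental line had 2 libraries, so a miss of the threshold does not show equal levels.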
